A study of Mus musculus with 7 samples.

Results

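Astrocytes clear glutamate and potassium from around synapses and control water movement at the vessels, and 10 genes that carry out or mark these tasks were followed here in mouse brain after stroke. They are Slc1a2, Slc1a3, Glul, Kcnj10, Gja1, Gjb6, Aqp4, Aldh1l1, Aldoc and S100b, chosen by name out of 23349 genes and other features tested. Each was represented by its brightest probe, and their 13 probes were well above background on all 7 arrays. RNA came from brain of male C57BL/6N mice, either wild type or Pla2g2e -/-, which lack a secreted phospholipase A2. There were 3 arrays labelled wild type day 3 and 3 labelled knockout day 3, after 60 min of middle cerebral artery occlusion, the closing of a main artery of 1 hemisphere. The other array was labelled wild type sham, with no day of sampling given. The labels give neither the brain region nor whether replicates are separate animals, so p-values measure the spread between these samples only, which may be technical.

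Glutamate released by neurons is taken up by the transporters GLT-1 (Slc1a2) and GLAST (Slc1a3) and turned into glutamine by glutamine synthetase (Glul). Potassium enters through the inward rectifier Kir4.1 (Kcnj10) and spreads through gap junctions of connexin 43 (Gja1) and connexin 30 (Gjb6), while aquaporin-4 (Aqp4) lets water cross the endfeet on blood vessels. Aldh1l1, a folate enzyme, Aldoc, a glycolytic aldolase, and S100b, a calcium-binding protein, are markers of astrocytes. Glul, Kcnj10 and S100b are also known from oligodendrocytes, and S100b and Aqp4 from ependymal cells.

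Signals are log2 values after subtraction of the array's own 75th percentile, so that 1 unit is a doubling. Probes differ in brightness for the same amount of RNA, and levels are therefore compared between arrays and not between genes. The arrays had 31177 to 34029 of 43020 spots well above background and none saturated. Wild type and sham arrays shared 1 slide and the knockout arrays a second, and the effects of genotype and slide cannot be told apart. Over all arrays the brighter Pla2g2e probe did not separate the genotypes. Wild type values were -6.89, -3.68 and -3.36 and knockout values -4.44, -5.83 and -4.97. These are in the order of the replicate numbers, which holds for all values listed here. Wild type replicate 1 was the lowest of the 7 arrays on both Pla2g2e probes. The other wild type day 3 arrays lay above every knockout array on both. On the dimmer probe they read -6.72 and -6.50, against -7.94, -8.44 and -7.84 in knockout. Sham lay within the knockout values on the brighter probe (-4.69) and above them on the dimmer (-6.83). Arrays are named by their labels. The array labelled wild type day 3 replicate 1 stood apart from the rest and against its label. On it all 12 reactive astrocyte genes were the lowest of the 7 arrays, beside 34.3% of all features. All 10 neuron genes were the highest, beside 43.9%. The sham array, at a median of 2.67 for the reactive and 2.29 for the neuron list, lay close to the other day 3 arrays (2.83 to 3.67 and 0.44 to 2.46). The treatment text of the labels names the occlusion for all 7 samples, sham included, so every difference from sham holds for the arrays as labelled only. Differences between the genotypes are also given without wild type replicate 1 and sham, and those from sham, where named, without wild type replicate 1.

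The transporter Slc1a2 was read by 3 probes, and the sequence of the brightest is shown because the differences given for this gene come from it. It lies on chr2:102617752-102617811 of mm9, plus strand, and 1 of its reading frames holds no stop codon. The other probes start 4500 and 8628 bases further along the same strand.

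Slc1a2 probe: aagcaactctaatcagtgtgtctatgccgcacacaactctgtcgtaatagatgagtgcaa

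The upstream sequences of both transporters and of Glul are shown because, of these 3 genes, both transporters varied more across the arrays than Glul. Each is the 250 bases before the start site in RefSeq, build GRCm38.p6, with motif matches in capitals. Slc1a2 is at chr2:102706188-102706437 (plus strand), Slc1a3 at chr15:8710808-8711057 (minus strand) and Glul at chr1:153899679-153899928 (plus strand).

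Slc1a2: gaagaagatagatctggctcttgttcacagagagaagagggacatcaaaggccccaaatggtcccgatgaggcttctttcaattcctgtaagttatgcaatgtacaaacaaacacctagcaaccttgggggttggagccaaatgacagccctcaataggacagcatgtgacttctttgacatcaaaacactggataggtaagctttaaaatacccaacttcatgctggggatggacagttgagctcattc

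Slc1a3: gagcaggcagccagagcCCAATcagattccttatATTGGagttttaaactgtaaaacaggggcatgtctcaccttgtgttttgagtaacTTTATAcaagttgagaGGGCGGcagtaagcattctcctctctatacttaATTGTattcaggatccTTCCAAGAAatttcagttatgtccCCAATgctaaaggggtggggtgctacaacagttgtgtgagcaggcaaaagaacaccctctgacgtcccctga

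Glul: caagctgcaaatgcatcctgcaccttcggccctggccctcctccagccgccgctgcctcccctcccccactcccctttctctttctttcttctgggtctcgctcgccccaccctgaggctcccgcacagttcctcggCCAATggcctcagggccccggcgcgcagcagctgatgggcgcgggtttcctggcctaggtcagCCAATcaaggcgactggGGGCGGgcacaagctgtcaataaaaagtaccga

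Motifs were searched on both strands in 10 such windows, of 9 of the genes, Aldoc having 2 windows. The Slc1a3 window held TTCNNNGAA, the letters of a STAT site, 96 bases before the start site, and an Aldoc window held it 124 and 83 bases before its start site. Of all 32851 windows of this length 7.02% hold it. The Slc1a3 window also held TATAAA (12.4% of all windows), CCAAT (33.8%), GGGCGG (32.7%) and ACAAT (27.7%), while the Glul window held CCAAT at 2 places and GGGCGG. The AP-1 letters TGANTCA were found in the Gja1 window (6.75% of all), and CACGTG (6.02%) and ACGTG (16.6%), which overlaps it, in none of the members' windows. The Slc1a2 window held none of these letters. These matches are descriptions of the letters only.

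Slc1a2, the main glutamate transporter of the forebrain, was highest by far on the array labelled wild type replicate 1. The wild type values were 3.33, 1.67 and 1.14, the sham value 1.80 and the knockout values 1.08, 1.59 and 1.76. The first was 1.53 above the next highest array, or 2.89-fold, and the other 6 arrays overlapped between the groups. Both other probes of the gene were highest on the same array, with 0.74 there against -1.87 to -1.04 elsewhere, and 0.12 against -2.24 to -1.46. With each probe set to its own mean, the largest difference on any array between the brightest and another probe was 0.25. Knockout minus wild type was -0.57 ± 0.60 (SE; 95% interval -2.06 to 0.92; limma, adjusted p = 0.862), and 0.07 ± 0.29 without wild type replicate 1 and sham (adjusted p = 1.0). In brain tissue fewer cells of a type and less RNA per cell cannot be told apart.

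Slc1a3, the transporter GLAST, gave 3.02, 1.82 and 1.48 in wild type, 2.29 in sham and 0.73, 2.43 and 1.89 in knockout. It had both a high array, wild type replicate 1, and a low one, knockout replicate 1, which was 1.68-fold below the next lowest. The knockout and wild type arrays overlapped, and the difference was -0.42 ± 0.60 (SE; limma, adjusted p = 0.862). Without wild type replicate 1 and sham it was 0.036 ± 0.54. Its probe is on chr15:8584236-8584295 of mm9, minus strand.

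Glul, which makes glutamine from the glutamate taken up, was nearly level. Its values were 4.74, 4.93 and 4.80 in wild type, 4.61 in sham and 4.70, 4.73 and 4.90 in knockout. The range over the 7 arrays was 0.33, and 4.75% of all features had a smaller one (13.4% were under 0.5, as was Glul alone of the 10). The range of Slc1a2 was 2.25 and that of Slc1a3 2.30, with 75.7% and 76.3% of all features smaller. Without wild type replicate 1 the ranges were 0.72 for Slc1a2, 1.71 for Slc1a3 and 0.33 for Glul. The knockout minus wild type difference of Glul was -0.05 ± 0.17 (SE; 95% interval -0.48 to 0.38; limma, adjusted p = 0.924), and -0.09 ± 0.14 without wild type replicate 1 and sham. The signal of this single probe, at chr1:155756765-155756824 of mm9, thus stayed level on wild type replicate 1, where both transporters stood highest. It also stayed level on knockout replicate 1, where Slc1a3 stood lowest. Slc1a2 was lowest there on its brightest probe only, by 0.06.

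**Figure D1:**
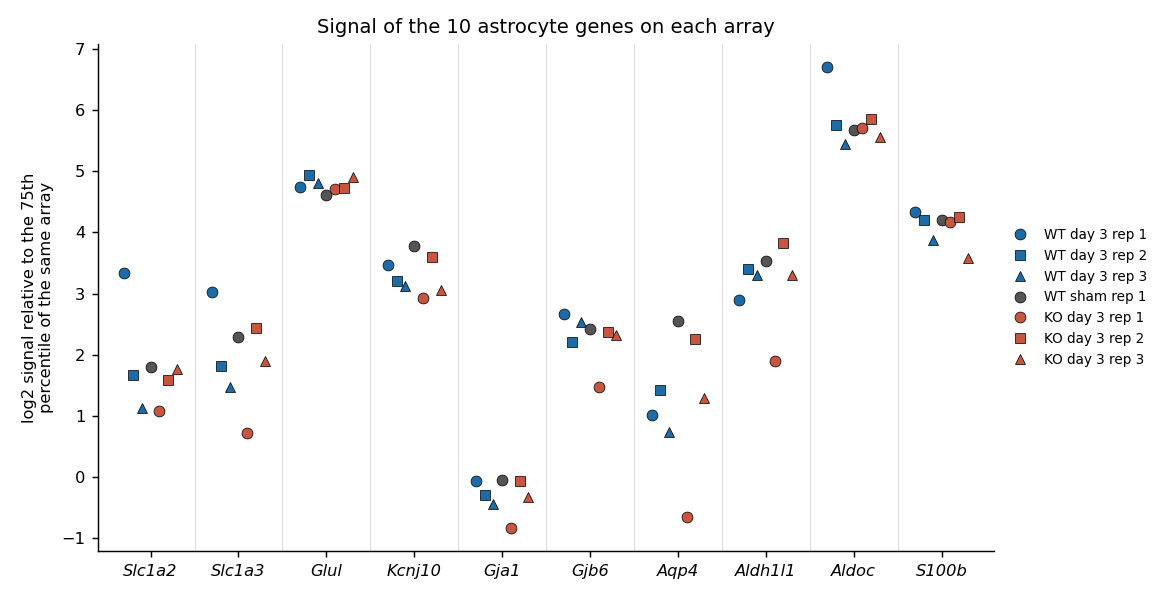
Log2 signal relative to the 75th percentile of the array (vertical axis) for each gene (horizontal axis), 1 point per array, colour for group and shape for replicate. Heights are not comparable between genes; wild type replicate 1 stands above the rest in Slc1a2 (3.33), Slc1a3 (3.02) and Aldoc (6.70), and knockout replicate 1 below the rest in Aqp4 (-0.66), Aldh1l1 (1.90), Gjb6 (1.47) and Slc1a3 (0.73).

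Kcnj10, the potassium channel Kir4.1, gave 3.46, 3.21 and 3.13 in wild type, 3.78 in sham and 2.93, 3.60 and 3.07 in knockout. Sham was the highest and knockout replicate 1 the lowest, within a range of 0.85, and the genotypes overlapped. Knockout lay at -0.07 ± 0.25 relative to wild type (SE; limma, adjusted p = 0.926), and at 0.031 ± 0.24 without wild type replicate 1 and sham. Its probe is at chr1:174304062-174304121 of mm9.

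Gja1, connexin 43, was measured by 10 spots of 1 probe at chr10:56109814-56109873 of mm9, which show the noise between spots. The means over the spots were -0.06, -0.29 and -0.43 in wild type, -0.05 in sham and -0.83, -0.05 and -0.32 in knockout. The SD over the spots of 1 array was 0.08 to 0.14, against an SD of 0.28 over the 7 array means. On knockout replicate 1 the highest of the 10 spots, -0.67, lay below the lowest spot of every other array, the nearest being -0.55 on wild type replicate 3. The spots show only the noise within an array, not that of samples, labelling or hybridization. Knockout minus wild type was -0.14 ± 0.26 (SE; limma, adjusted p = 0.874), and -0.037 ± 0.26 without wild type replicate 1 and sham. Gjb6, connexin 30, which is found beside connexin 43 in astrocyte junctions, gave 2.67, 2.21 and 2.54 in wild type and 2.42 in sham. Its knockout values were 1.47, 2.37 and 2.33, the first 1.67-fold below the next lowest array. Gjb6 had the smallest unadjusted p of the 10 genes between the genotypes, 0.237, with a difference of -0.42 ± 0.31 (SE; limma, adjusted p = 0.862), and -0.32 ± 0.34 without wild type replicate 1 and sham. Its probe is at chr14:57742226-57742285 of mm9, minus strand.

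Aqp4, the water channel of the endfeet, varied most of the 10. Wild type gave 1.01, 1.43 and 0.74, sham 2.55 and knockout -0.66, 2.26 and 1.29. Knockout replicate 1 was 2.64-fold below the next lowest array, and sham and knockout replicate 2 were the highest. A second probe, 3413 bases away, was lowest and highest on the same arrays, with -1.43 on knockout replicate 1, 1.99 on sham and 0.08 to 1.75 on the others. The range of 3.20 was larger than that of 87.1% of all features. Within the knockout group the arrays spanned nearly that whole range, and the means ± SD of 3 arrays were 0.96 ± 1.48 for knockout against 1.06 ± 0.34 for wild type. The difference was -0.10 ± 0.75 (SE; 95% interval -1.97 to 1.78; limma, adjusted p = 0.964), and it was 0.71 ± 0.41 without knockout replicate 1 and -0.12 ± 0.91 without wild type replicate 1 and sham.

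**Figure D2:**
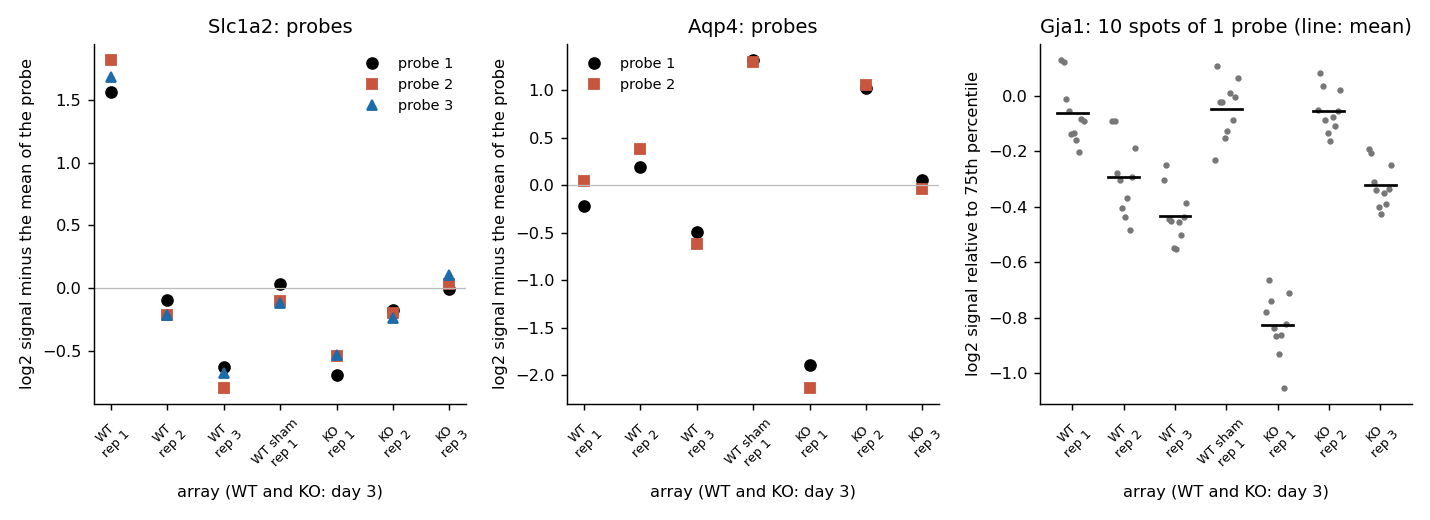
Left and middle, log2 signal of each Slc1a2 and Aqp4 probe minus that probe's own mean over the 7 arrays, by array; right, the 10 Gja1 spots of each array with their mean. Slc1a2 probes stand together at 1.56 to 1.82 on wild type replicate 1, Aqp4 probes at -2.13 and -1.89 on knockout replicate 1, and Gja1 spots of that array lie below all others.

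Aldh1l1, a general marker of astrocytes, gave 2.90, 3.40 and 3.30 in wild type, 3.53 in sham and 1.90, 3.83 and 3.30 in knockout. Knockout replicate 1 was 2.01-fold below the next lowest array, and the other knockout arrays lay at or above the middle wild type array. Aldoc, the brain aldolase, read 6.70 on wild type replicate 1 and 5.44 to 5.84 on the other 6 arrays, 1.81-fold above the next. S100b gave 4.33, 4.20 and 3.87 in wild type, 4.20 in sham and 4.18, 4.24 and 3.57 in knockout, the last being the lowest. Knockout minus wild type was -0.19 ± 0.53 for Aldh1l1, -0.26 ± 0.36 for Aldoc and -0.14 ± 0.26 for S100b (SE; limma, adjusted p = 0.903, 0.862 and 0.875). Without wild type replicate 1 and sham these were -0.34 ± 0.60, 0.10 ± 0.17 and -0.036 ± 0.26. On mm9 their probes are at chr6:90549091-90549150, chr11:78140198-78140257 and chr10:75723783-75723842.

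Across the arrays the 10 genes differed in where they stood out, taken as more than 0.5 outside all other arrays. Slc1a2 and Aldoc did so on wild type replicate 1, Aqp4, Aldh1l1 and Gjb6 on knockout replicate 1, and Slc1a3 on both. Gja1, Kcnj10, S100b and Glul did so on neither. Sham was the highest of the 7 arrays in Aqp4, Kcnj10 and Gja1, as in 6.67% of all features, though in Gja1 by only 0.0065. Likeness was measured as the root mean square difference over the 7 arrays after each gene was set to its own mean. The closest pair was Gja1 and Kcnj10 (0.14), followed by Gjb6 with Gja1 (0.21), whereas the nearest to Aqp4 was Aldh1l1 at 0.51. Values were not scaled by the spread of a gene, so genes of small range lie closer on this measure. The range was 0.78 for Gja1, 0.85 for Kcnj10 and 3.20 for Aqp4. The features nearest to the median profile of the 10 were Nacc2 (0.08), Nadk2 (0.09) and Cetn4 (0.09).

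**Figure D3:**
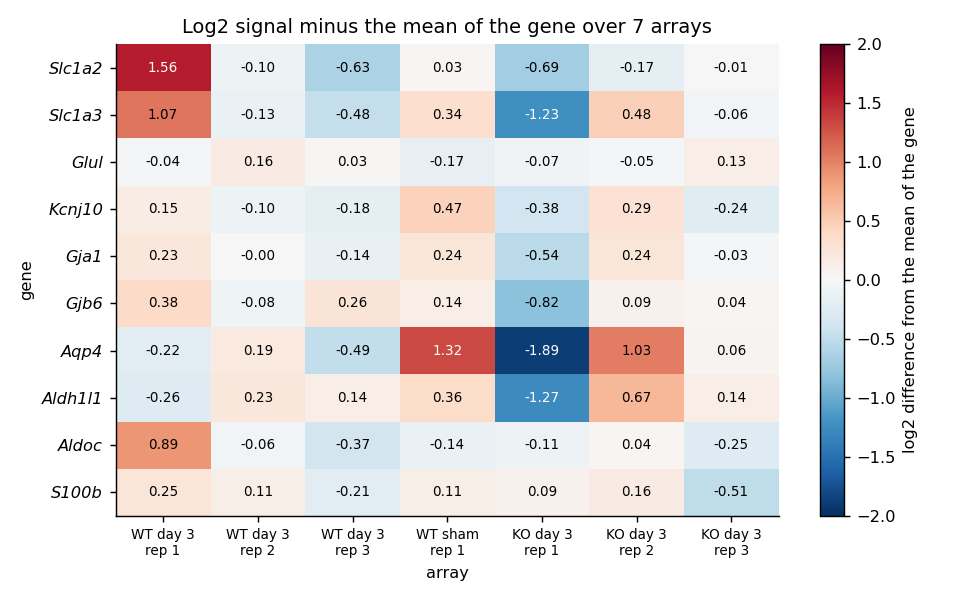
Log2 signal of each gene (rows) on each array (columns) minus the mean of the gene over the 7 arrays, red for above and blue for below. The row of Glul stays between -0.17 and 0.16; Slc1a2 reaches 1.56 on wild type replicate 1 and Aqp4 runs from -1.89 on knockout replicate 1 to 1.32 on sham.

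Between the genotypes at day 3, the question was whether loss of the phospholipase alters these genes after stroke. None of the 10 passed the test, and the largest differences were those of Slc1a2, Slc1a3 and Gjb6 given above. All 10 were nominally lower in knockout, with a median log2 difference of -0.16, against 53.2% of all features lower and a median of -0.03 over all features. Limma called 0 of 23349 features at an adjusted p under 0.05 (0%), with 198 at an unadjusted p under 0.05 (0.848%), none of them among the 10. No gene of the 10 separated the 3 knockout from the 3 wild type arrays without overlap, and 4.54% of all features did; without wild type replicate 1 it was again none, beside 11.6%. An exact permutation test of 3 against 3 arrays could not go below p = 0.10 and was not used.

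The common direction rested on single arrays. Without wild type replicate 1 and sham 4 genes were higher and 6 lower in knockout (median -0.04, 49.7% of all features lower), and without knockout replicate 1 they were 5 and 5 (median 0.02), beside 55.6% of all features lower with a median of -0.05. Without all 3 of these arrays, a choice made after seeing the data, 7 were higher and 3 lower (median 0.17), beside 53.4% of all features lower with a median of -0.01. In the same way Aldh1l1 went from -0.19 to 0.37 ± 0.30 without knockout replicate 1; Aldoc turned sign without wild type replicate 1 and sham. None of the 10 passed in any of these fits, and without wild type replicate 1 and sham limma again called 0 features, with 381 at an unadjusted p under 0.05 (1.63%).

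**Figure D4:**
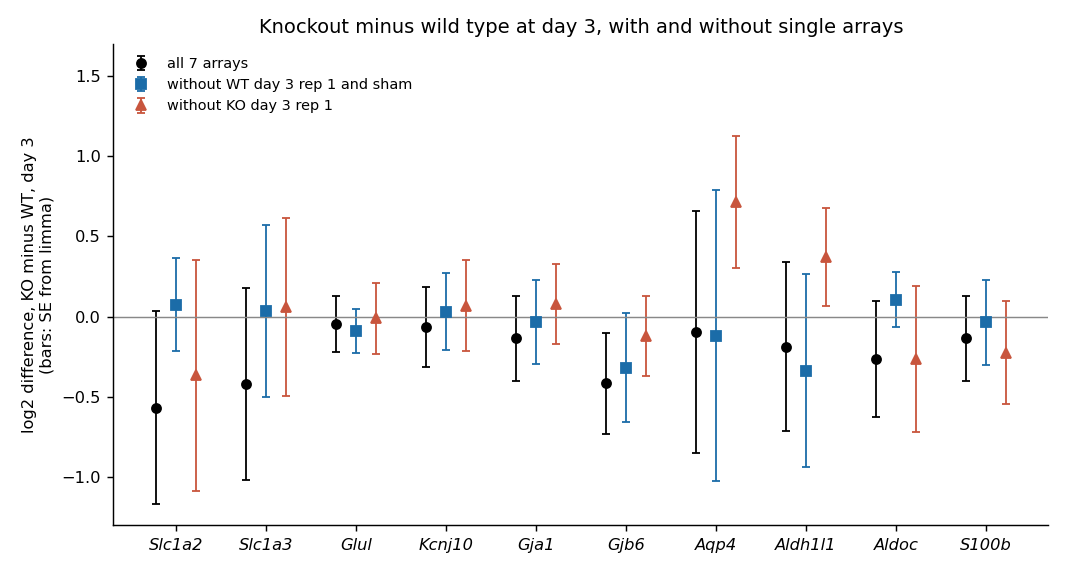
Log2 difference, knockout minus wild type at day 3 (vertical axis; bars are SE from limma), for each gene with all 7 arrays (black), without wild type replicate 1 and sham (blue) and without knockout replicate 1 (red). All black points lie below 0, from -0.57 for Slc1a2 to -0.05 for Glul, and the blue and red points lie on both sides of it.

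The comparison of wild type day 3 with the single sham array, within 1 slide, addresses the effect of the occlusion, as far as the labels hold. Aqp4, Kcnj10, Aldh1l1 and Gja1 were higher on sham than on each wild type day 3 array, as were 11.1% of all features. For Gja1 this was narrow (-0.047 against -0.063 on wild type replicate 1). For Aqp4 the difference was -1.49 ± 1.07 at day 3 (SE; 95% interval -4.13 to 1.16; limma, adjusted p = 1.0). It was -0.51 ± 0.35 for Kcnj10 and -0.33 ± 0.74 for Aldh1l1, whereas Glul was lower on sham, at 0.22 ± 0.24 (SE; adjusted p = 1.0 each). Of the 10, 4 were higher and 6 lower at day 3 (median -0.12), beside 54.1% and 45.9% of all features. Limma called 3 of 23349 features (0.0128%) and 261 had an unadjusted p under 0.05 (1.12%), with none of the 10 in either count. In a fit of this slide alone the difference of Aqp4 had an SE of 0.44 and again an adjusted p of 1.0 (limma), and it was the 1 gene of the 10 with an unadjusted p under 0.05, beside 174 of 23349 features (0.745%).

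Without wild type replicate 1, 9 of the 10 were lower at day 3 than on sham and Glul alone was higher (median -0.25, 49.3% of all features lower). Aqp4 was then at -1.46 ± 1.22 and Kcnj10 at -0.61 ± 0.32 (SE; limma, adjusted p = 0.769 each). The sign of Slc1a2 turned from 0.25 ± 0.85 to -0.40 ± 0.39, and Slc1a3 went from -0.18 to -0.64 ± 0.72 (limma, adjusted p = 0.77 and 0.782). Knockout day 3 minus the same sham array was -1.58 ± 1.07 for Aqp4, -0.61 ± 0.85 for Slc1a3, -0.58 ± 0.35 for Kcnj10 and 0.17 ± 0.24 for Glul (SE; limma, adjusted p = 1.0 each). In that comparison 8 of the 10 were lower, beside 49.6% of all features, and none was among the 3 features called (0.0128%) or the 305 at an unadjusted p under 0.05 (1.31%). Sham was above each knockout array in 5 of the 10 (Aqp4, Kcnj10, Gja1, Gjb6 and Slc1a2), beside 25.8% of all features. The margins were narrow for Gja1 (-0.047 against -0.053), Gjb6 (2.42 against 2.37) and Slc1a2 (1.80 against 1.76). On both other Slc1a2 probes sham lay below knockout replicate 3 (-1.17 against -1.04 and -1.69 against -1.46). Both comparisons share the sham array, a single one whose spread is taken from the other groups. Knockout minus sham also crosses genotype and slide, whose effects cannot be told apart there from that of the occlusion.

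Knockout replicate 1 was the array that set most of the low values. It was the lowest of the 7 arrays in 7 of the 10 genes, beside 12.2% of all features, and in 4 of them, Aqp4, Aldh1l1, Slc1a3 and Gjb6, by more than 0.5, beside 2.78% that lay as far outside on either side. For Slc1a2 this held on the brightest probe only, by 0.06, and its other probes were within the other arrays there. Glul, S100b and Aldoc, at 4.70, 4.18 and 5.70, were within the other arrays there. Of the 15 other astrocyte identity genes 10 were lowest on this array, as were 7 of 17 ion and water handling genes and 4 of 10 genes of glutamate and other transmitters. Glud1, the mitochondrial enzyme that breaks glutamate down, read 1.04 there and 3.09 to 3.69 on the other 6 arrays. Lowest on it were also 1 of 10 neuron genes and 0 of 8 oligodendrocyte genes, which is near the share of all features. The 3 red cell genes were all at their highest on this array, with a median of -1.38 against -6.30 to -2.98 elsewhere, and their part in the low values was not tested.

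Wild type replicate 1 differed from the others in a different set. Of the 10 genes 5 were highest on it, beside 43.9% of all features, and none lowest, beside 34.3%. More than 0.5 outside the other arrays lay 3 of the 10, Slc1a2, Slc1a3 and Aldoc, beside 46.4% of all features. The median of the 10 was 3.18 on this array and 1.68 to 3.04 on the others. These medians are over levels of unlike probes. With each gene first set to its own mean over the arrays, the median was 0.24 on this array and -0.61 to 0.20 on the others. The neuron list had a median of 4.20 against 0.44 to 2.46 and the reactive astrocyte list -1.42 against 2.67 to 3.67. The microglia and macrophage list had a median of 0.41 against 3.21 to 4.11, and the endothelial list -0.46 against 0.83 to 1.92. The part of these lists in the high transporter values was not tested.

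**Figure D5:**
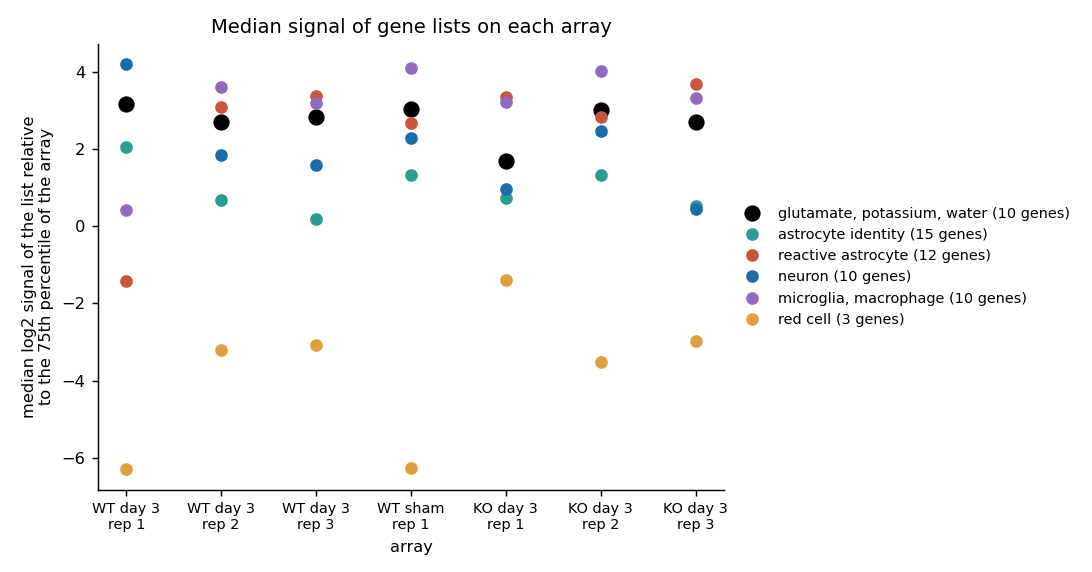
Median log2 signal of 6 gene lists (colours) on each of the 7 arrays. The median of the glutamate, potassium and water genes (black) is lowest on knockout replicate 1 (1.68), and the neuron and reactive astrocyte medians stand apart on wild type replicate 1 (4.20 and -1.42).

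The partners of these genes did not pass either. In the list of 10 genes of glutamate, GABA, glycine and other amino acid handling, 0 passed between the genotypes. Nominally 2 were higher and 8 lower in knockout, beside 53.2% of all features lower. The median was -0.46, which became 0.021 without wild type replicate 1 and sham. The largest shift by rank of p was that of the glutamine transporter gene Slc38a3, at -0.45 ± 0.41 (SE; limma, adjusted p = 0.862). Against sham, the glycine transporter gene Slc6a9 was -0.89 ± 0.69 and the mitochondrial glutamate carrier gene Slc25a18 -0.93 ± 0.79 in wild type day 3 (adjusted p = 1.0 each). Of 18 ion and water handling genes 17 were measured and 0 passed, with a median of -0.20 between the genotypes, or 0.039 without those arrays. Aqp1, the water channel of the choroid plexus and of other cells, had -5.43 on wild type replicate 1 and -0.83 to 1.95 on the other arrays. Hepacam, an adhesion protein of astrocyte endfeet, was -0.56 ± 0.43 and the cotransporter gene Slc12a2 -0.57 ± 0.40 in wild type day 3 against sham (SE; adjusted p = 1.0 each).

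In the astrocyte identity list 0 of 15 genes passed, and the median between the genotypes was -0.22, or -0.01 without wild type replicate 1 and sham. In wild type day 3 against sham, Mfge8 was 0.55 ± 0.37 and Slco1c1 0.55 ± 0.38 (SE from limma). These were higher at day 3 without passing, while the median of the list was -0.12. Ntsr2, a neurotensin receptor gene of astrocytes, read 3.83 on wild type replicate 1 and 0.06 to 1.32 elsewhere, and Cldn10, a claudin gene, 0.92 against -1.13 or less. Gfap, the intermediate filament of reactive astrocytes, read 0.43 on wild type replicate 1, 1.81 on knockout replicate 1 and 3.68 to 4.49 on the other 5 arrays. Between the genotypes the reactive astrocyte list had a median of 1.38, which became -0.03 without wild type replicate 1 and sham. Leaving out the same arrays also moved the medians of other cell types. The neuron list went from -1.29 to -0.40, the microglia and macrophage list from 0.65 to 0.027 and the red cell list from 1.56 to 0.51. Signs turned for the endothelial list, from 0.68 to -0.12, and for the pericyte and fibroblast list, from 0.66 to -0.38. The medians were 0.21 and 0.31 with and without them for oligodendrocytes, 0.26 and 0.15 for their precursors and -0.28 and -0.26 for choroid plexus and ependyma. No gene of these lists passed with all 7 arrays.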

How the data were processed

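The authors deposited scanner output with spot intensities, made with Agilent Feature Extraction 11.5.1.1 per the submitters' processing notes. The processed intensity was spatially and multiplicatively detrended within each array, per the file headers. The deposited value table holds a ratio, found to be the processed signal over its 75th percentile of each array, to within 0.0428%; its column medians were 0.0863 to 0.0976.

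Log2 processed signals had each array's 75th percentile subtracted. Outlier-flagged spots were left out, spots of a probe averaged, probes well above background on at least 3 arrays kept and the brightest probe taken per gene. Limma 3.58.1 in R 4.3.3 tested 23349 features in a model of 3 groups (4 residual and 1.68 prior degrees of freedom), two-sided, with Benjamini-Hochberg adjustment and a threshold of 0.05. For the lone sham array the spread is borrowed from the other groups.

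Symbols came from RefSeq GRCm38.p6 accessions for 28324 of 39429 probes. All 13 probes of the 10 genes matched. The members and lists were chosen with earlier results of these data known. The rule for named genes gave the members with all their probes, Gfap, Pla2g2e, the 3 nearest profiles and per list the 2 genes of smallest p in knockout minus wild type and in wild type minus sham. Lists of other cell types are given by medians and by counts of genes highest or lowest on an array. The names of the rule that are left out did not pass. On simulated data for the comparison of genotypes, in which 200 of 23349 features were changed, limma recovered 1.49%, 43.3% and 69.7% of log2 changes of 1, 2 and 4, with 5 false calls. Without wild type replicate 1 and sham it recovered 19.4%, 44.8% and 77.3%, with 1 false call.

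Same-numbered replicates were checked as pairs. Their deviations from the group means correlated at -0.38, -0.56 and 0.35 for numbers 1, 2 and 3. Deviations from a mean of 3 arrays depend on each other, so this check cannot decide whether the numbers pair the samples. Alternatives were normexp background correction, quantile and median scaling, the deposited table, other filters, mean of probes, leaving out arrays and the replicate number as a block. Plots used Python 3.11.15 and matplotlib 3.10.9.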

Additional observations from a re-analysis of the deposited data

How the results depend on the processing

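None of the 10 genes passed in any of 440 comparisons of a gene's difference with an alternative (limma, adjusted p 0.665 to 1.0), and 36 changed sign, 32 when arrays were left out and 4 by scaling. The replicate number as a block left 0 features called between the genotypes, with 150 at an unadjusted p under 0.05 and all 10 genes lower as before; labels alone do not pair the samples. Against sham, the 3 calls in each comparison became 0 with normexp, quantile scaling and the filter on all 7 arrays; median scaling gave 0 for knockout and 1 for wild type, and the wild type slide alone 0. Leaving out 1 array gave 0 to 8 calls for knockout minus sham and 0 to 6 for wild type minus sham, the highest without wild type replicate 1. Median scaling moved the median over all features from 0.00 to 0.12 for knockout minus sham and from 0.03 to 0.13 for wild type minus sham, and normexp to 0.11 and 0.10.

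By scaling, quantile normalization turned Aldoc (-0.38) and Glul (-0.14) in knockout minus sham and Gjb6 (-0.041) in wild type minus sham, and median scaling turned S100b (0.036) in wild type minus sham. Without wild type replicate 1, knockout replicate 1 and sham, knockout minus wild type was 0.22 for Aldh1l1, 0.10 for Aldoc, 0.69 for Aqp4, 0.18 for Gja1, 0.17 for Kcnj10, 0.27 for Slc1a2 and 0.51 for Slc1a3. With arrays left out in turn, knockout minus wild type ran from -0.60 to 0.37 for Aldh1l1, -0.52 to 0.10 for Aldoc, -0.74 to 0.71 for Aqp4, -0.31 to 0.076 for Gja1, -0.11 to 0.0061 for Glul, -0.27 to 0.068 for Kcnj10, -0.27 to 0.076 for S100b, -1.02 to 0.074 for Slc1a2 and -0.80 to 0.056 for Slc1a3. Knockout minus sham ran from -0.92 to 0.044 for Aldh1l1, -0.041 to 0.10 for Aldoc and -0.32 to 0.011 for S100b. Wild type minus sham ran from -0.074 to 0.56 for Aldoc, -0.049 to 0.18 for Gjb6, -0.16 to 0.067 for S100b, -0.40 to 0.70 for Slc1a2 and -0.64 to 0.13 for Slc1a3. The cause of these changes was not tested beyond the arrays left out. The number of arrays, 3 in each day 3 group and 1 sham, limits the precision, and all probes of the 10 genes were well above background.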
